A study of Mus musculus with 6 samples.

Results

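The replication-dependent histone genes were followed in the bulk RNA-seq of basal keratinocytes, the dividing cells of the innermost epidermal layer. They were taken by gene symbol, as the H1f1 to H1f5 linker histones and every H2ac, H2bc, H3c and H4c gene with a number, and 69 of the 55536 genes in the count table met this rule. Of these 69, 5 encode H1, 20 belong to H2A, 19 to H2B, 12 to H3 and 13 to H4, and 2 of the H2A members (H2ac5-ps and H2ac14-ps) are pseudogenes. The cells came from the dorsal skin of E16.5 mouse embryos, were sorted by FACS for Epcam and integrin α6, and gave 3 Ctrl and 3 TKO libraries of rRNA-depleted total RNA.

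Ctrl embryos were Suv39h1 f/f, Suv39h2-/- and Setdb1 f/f without K14CreERT2, and TKO embryos carried the same alleles with K14CreERT2. Both groups therefore lacked Suv39h2, and both received tamoxifen, given to pregnant females at E9.5, E10.5 and E11.5 according to the sample list of the study. The 3 deleted genes encode histone methyltransferases that place H3K9me3. The K14 promoter limits Cre to keratinocytes of the basal type, and the same sample list describes recombination as mosaic in the 3 litters behind these libraries, so that TKO libraries can hold cells that kept the floxed alleles. These litters held 4 Ctrl and 5 TKO embryos, which the labels do not tie to libraries. The first Ctrl library and the second TKO library were from female embryos, and the other 4 were from males.

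Replication-dependent histone genes supply the bulk of new nucleosomes while DNA is copied. H2A, H2B, H3 and H4 form the core around which DNA is wrapped, and H1 binds the linker between cores. The genes lie in clusters, mostly lack introns, and their mRNAs end in a stem-loop bound by SLBP instead of a poly(A) tail, which keeps them abundant in S phase and short-lived outside it. Libraries selected by poly(A) tail miss most of these transcripts, whereas rRNA-depleted total RNA retains them. In bulk RNA from sorted cells, fewer cells in S phase and less histone RNA per cell cannot be told apart.

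The stem-loop is the feature that sets these mRNAs apart, so the genomic sequence after each stop codon was searched for it. The search used a 6-pair stem with a 4-base loop within 150 bases of the stop codon, on the coding strand of GRCm39. A stem-loop was found for 61 of the 67 protein-coding members, against 102 of 21770 protein-coding genes in all (0.469%), and it began between 22 and 59 bases after the stop codon (median 32). The examples below are abundant members of each class together with the 3 H4 forms; capitals mark stem and loop, with 5 bases on each side.
H1f3, chr13:23739956-23739981, plus strand: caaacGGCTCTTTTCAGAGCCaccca
H2ac15, chr13:21937547-21937572, minus strand: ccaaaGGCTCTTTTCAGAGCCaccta
H2bc8, chr13:23756012-23756037, plus strand: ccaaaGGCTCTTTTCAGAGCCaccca
H3c6, chr13:23746072-23746097, minus strand: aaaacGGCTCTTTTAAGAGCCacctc
H4c4, chr13:23765928-23765953, plus strand: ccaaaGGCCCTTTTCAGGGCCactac
H4c14, chr3:96170250-96170275, minus strand: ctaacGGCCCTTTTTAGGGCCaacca
H4c2, chr13:23941344-23941369, plus strand: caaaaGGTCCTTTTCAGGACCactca

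The H4 genes had stems of their own. With positions counted from 1 at the 5′ end of the stem, all 12 H4 members with a stem-loop carried T4C together with A13G relative to the commonest form, and none of the 49 members of the other classes carried either change. The commonest form, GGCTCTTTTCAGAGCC, ended 39 members (5 H1, 15 H2A, 11 H2B and 8 H3), and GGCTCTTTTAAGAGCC, with C10A in the loop, ended 8 (1 H2A, 4 H2B and 3 H3). Among H4 genes, 8 had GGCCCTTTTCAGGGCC, 2 had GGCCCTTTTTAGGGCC and 2 had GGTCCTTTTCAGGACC. No such stem-loop was found in the window for H2bc21, H2bc22, H2bc23, H2bc24, H3c8 and H4c1. The annotated coding sequences of H2bc22, H2bc23 and H2bc24 have 414, 402 and 402 bases, against 378 for most H2B genes. The window after their annotated stop codon thus need not lie where it does in other H2B genes, and no other window was searched. The match is a description of the letters, not a measurement of SLBP binding.

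The labels were checked on the targeted genes and on keratinocyte markers. Levels are given as CPM, which sets counts against the TMM-scaled size of each library, and always in the order of replicates 1, 2 and 3. Setdb1 had 126, 118 and 121 CPM in Ctrl and 95.3, 62.3 and 74.9 CPM in TKO. The groups did not overlap, but Setdb1 was not called (log2 fold change −0.65 ± 0.16, SE; adjusted p = 0.286, edgeR quasi-likelihood test with Benjamini-Hochberg adjustment). Suv39h1 was at 83.7 ± 5.1 CPM in Ctrl and 78.0 ± 10.5 in TKO (SD, n = 3), and Suv39h2, deleted in both groups, was at 16.2 ± 0.78 and 17.5 ± 1.5 CPM. Counts over a whole gene can include reads from exons that a deletion leaves in place, so the last pair of genes does not test the labels. The basal keratins Krt5 and Krt14 were abundant in every library, between 6994 and 12318 CPM and between 4203 and 6370 CPM.

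The libraries did not divide by group for histone transcripts, and 2 of them stood apart. The 69 genes held 1.58%, 1.49% and 0.979% of all counts in Ctrl replicates 1, 2 and 3, and 1.16%, 1.03% and 0.993% in TKO replicates 1, 2 and 3. Ctrl replicate 3 was thus below all 3 TKO libraries, while the other Ctrl libraries were above them. TKO replicate 3 reached a total close to that of the other TKO libraries with another mixture of classes, which is described below. Library totals ran from 102159175 to 136515436 counts, so that a floor of 3 counts, which covers counting error only, lay between 0.0232 and 0.0303 CPM.

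Summed over all 69 genes, histone transcripts stood at 16320, 15709 and 9482 CPM in Ctrl and at 11468, 10140 and 9666 CPM in TKO. The means were 13837 ± 3784 and 10425 ± 934 CPM (SD, n = 3 each), which places TKO at 75.3% of Ctrl with overlapping groups. Without replicate 3 of both groups, a subset chosen after seeing the data, TKO was at 67.5% of Ctrl. The single female TKO library was at 62.1% of the single female Ctrl library, and the mean of the 2 male TKO libraries was at 83.9% of that of the 2 male Ctrl libraries.

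Gene by gene, 65 of the 69 members passed the filter on low counts, and 62 of these 65 had a log2 fold change below 0, beside 48.1% of the 20622 genes tested. The median log2 fold change was −0.46 over the 65 and 0.01 over all genes tested, and 55 of the 65 lay between −0.8 and −0.2. No member passed the test in either direction. Called genes, which needed an adjusted p under 0.05 together with a log2 fold change above 1 or below −1, made up 0% of all genes for lower and 0.131% for higher levels in TKO, and the lowest adjusted p among members was 0.654 (H3c1, edgeR quasi-likelihood test). At an unadjusted p under 0.05, 13 members were lower, namely 8 H3, 3 H2B and 2 H2A genes, beside 2.02% of all genes, and 0 were higher, beside 4.06%. Because the members share stem-loops, clusters and sequence and shifted together between libraries, these counts are not independent of each other.

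Separation of the groups was rare. In 4 members all TKO libraries lay below all Ctrl libraries (H2bc21, H2ac19, H3c11 and H3c1, named after their values were seen), which is 6.15% of the 65 beside 5.11% of all genes, and in 0 members they lay above, beside 6.35%. H3c1, an H3 gene, had 346, 333 and 260 CPM in Ctrl and 226, 238 and 236 CPM in TKO (log2 fold change −0.42 ± 0.15, SE). Its lowest Ctrl value, in replicate 3, was close to the highest TKO value. H2bc21, one of the H2B genes without a stem-loop in the window, had 20.1, 17.8 and 17.8 CPM in Ctrl and 10.7, 10.96 and 16.3 CPM in TKO (−0.56 ± 0.20), with TKO replicate 3 near the Ctrl values. For 52 members, Ctrl replicates 1 and 2 were both above the other 4 libraries. Ctrl replicate 3 was the lowest Ctrl library for 61 members and lay below at least 1 TKO library for 60.

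**Figure D1:**
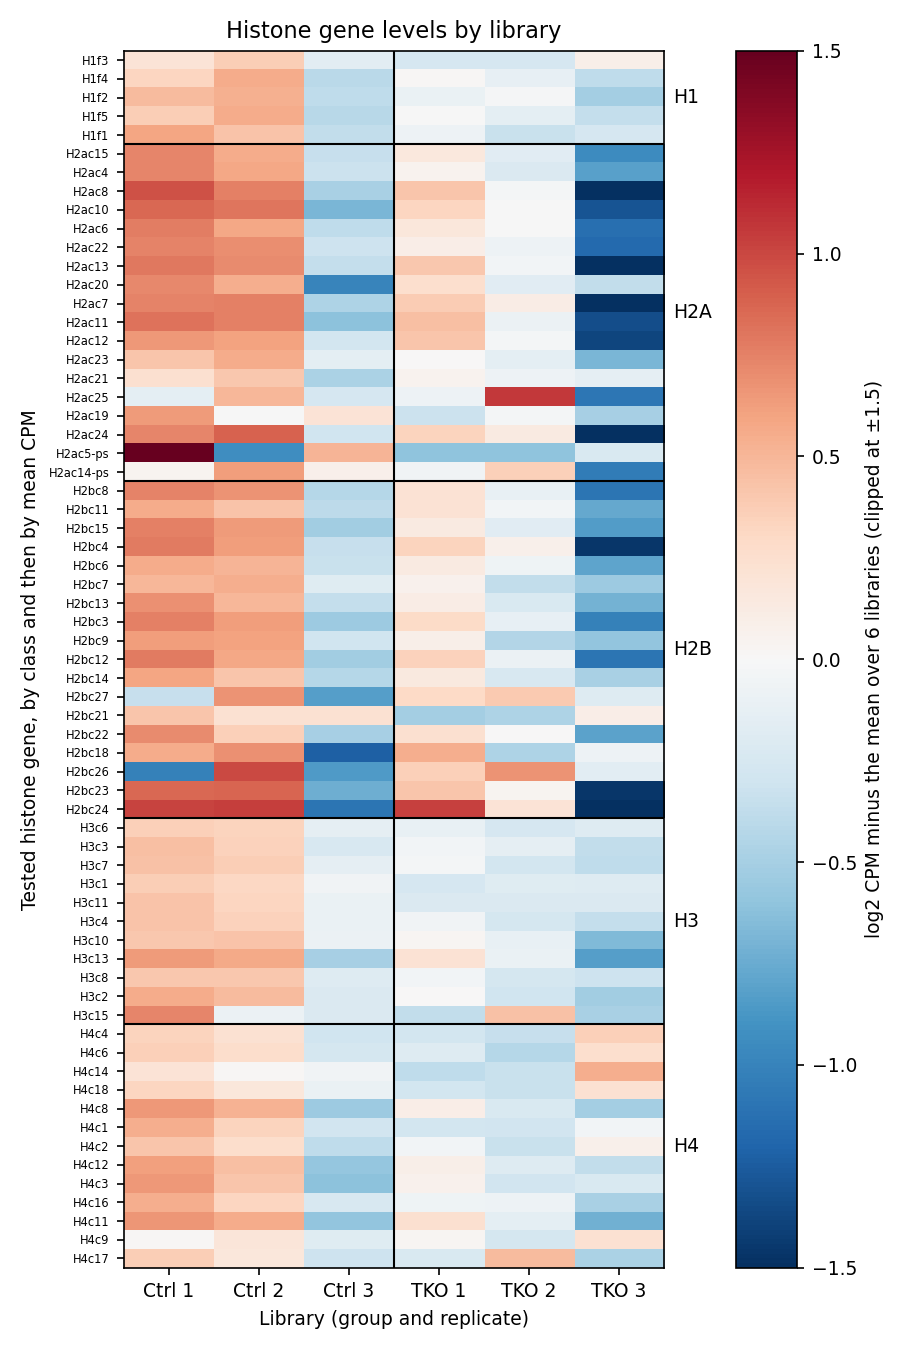
Level of each tested histone gene (rows, grouped by class and ordered by mean CPM) in each of the 6 libraries (columns), as log2 CPM minus the mean of the gene over the libraries, clipped at ±1.5. Ctrl replicates 1 and 2 are above the gene means for nearly every gene, Ctrl replicate 3 is mostly below them, and TKO replicate 3 is the lowest library for 15 of 18 H2A and 14 of 18 H2B genes, while several H4 genes are above their means.

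The size of the difference between groups rested on single libraries. Leaving out Ctrl replicate 3 moved the median log2 fold change of the members to −0.68 and the number lower at an unadjusted p under 0.05 to 40 of 65, beside 2.55% of all genes tested in that setting. Leaving out Ctrl replicate 1 gave −0.34 and 0 members, beside 1.27% of all genes, and leaving out TKO replicate 3 gave −0.31 and 7 members, beside 4.65%. Without replicate 3 of both groups, an alternative chosen after seeing the data, the median was −0.55 and 49 members were lower at an unadjusted p under 0.05, beside 4.96% of all genes. No member was called under any of these settings, by edgeR's quasi-likelihood test.

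H1 linker histones, which bind where DNA enters and leaves the nucleosome core, held 23.0% of the histone CPM and, set against coding length, 14.0% of the CPM per coding kb. Their sum was 3510, 3805 and 2166 CPM in Ctrl and 2546, 2422 and 2304 CPM in TKO, or 76.7% of Ctrl (log2 ratio −0.38, which became −0.23 without Ctrl replicate 2 and −0.59 without Ctrl replicate 3). The 3 TKO libraries lay close together, above Ctrl replicate 3 and below the other Ctrl libraries. H1f3 was the most abundant at a mean of 1150 CPM per coding kb over the 6 libraries, followed by H1f4 at 958 and H1f2 at 893. H1f3 had 870, 969 and 674 CPM in Ctrl and 631, 630 and 801 CPM in TKO (log2 fold change −0.28 ± 0.18, SE), so that TKO replicate 3 exceeded Ctrl replicate 3. H1f2 had 761, 792 and 419 CPM in Ctrl and 510, 539 and 385 CPM in TKO (−0.46 ± 0.24). With 1 library left out, the values ran from −0.42 to −0.17 for H1f3 and from −0.70 to −0.30 for H1f2, in both from without Ctrl replicate 3 to without Ctrl replicate 2. All 5 H1 genes had a log2 fold change below 0, from −0.49 to −0.28, and 0 had an unadjusted p under 0.05.

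H2A, which pairs with H2B in the core, was the least abundant class at 6.60% of the histone CPM and 6.72% of the CPM per coding kb, which leaves out its pseudogenes. It was also the class with the most shared sequence, with a median of 64.5% of 100-base windows found elsewhere in the genome, against 0.792% for H1, 27.4% for H2B, 40% for H3 and 18.96% for H4, and with exons of other genes on the opposite strand of all 20 members. Its sum was 1228, 1128 and 553 CPM in Ctrl and 849, 683 and 361 CPM in TKO, or 65.1% of Ctrl (log2 ratio −0.62, which became −0.41 without Ctrl replicate 1 and −0.34 without TKO replicate 3). Replicate 3 was the lowest library of both groups, at 46.9% of the mean of the other 2 Ctrl libraries and at 47.1% of that of the other 2 TKO libraries. The most abundant members were H2ac15 at 560, H2ac4 at 329 and H2ac8 at 197 CPM per coding kb. H2ac4 had 199, 179 and 96.1 CPM in Ctrl and 124, 103 and 68.1 CPM in TKO (−0.68 ± 0.28; unadjusted p = 0.0365 in edgeR's test). H2ac8 had 128, 111 and 47.0 CPM in Ctrl and 88.0, 64.6 and 21.5 CPM in TKO (−0.72 ± 0.55; −0.45 without Ctrl replicate 1, −1.16 without TKO replicate 1 and −0.32 without TKO replicate 3). In both genes Ctrl replicate 3 was below TKO replicates 1 and 2, so the groups overlapped. The pseudogene H2ac5-ps had the lowest log2 fold change of all members (−1.35 ± 0.64), on a level of 2.22 CPM in Ctrl replicate 1 and 0.325 to 0.881 CPM in the other 5 libraries. Without Ctrl replicate 1 it was −0.43, closer to 0 than H2ac4 at −0.48 and H2ac22 at −0.56 in the same setting.

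H2B genes made up 18.6% of the histone CPM and 19.6% of the CPM per coding kb. Their sum was 3320, 3125 and 1594 CPM in Ctrl and 2407, 1923 and 1183 CPM in TKO, or 68.6% of Ctrl (log2 ratio −0.54, which became −0.36 without Ctrl replicate 1 and −0.31 without TKO replicate 3). As for H2A, replicate 3 was the lowest library in both groups, at 49.4% and 54.6% of the other 2 libraries of its group. H2bc8 led the class at 953 CPM per coding kb, before H2bc11 at 680 and H2bc15 at 643. H2bc8 had 551, 526 and 245 CPM in Ctrl and 381, 304 and 153 CPM in TKO (−0.66 ± 0.36; −0.36 without TKO replicate 3). H2bc11 had 361, 328 and 187 CPM in Ctrl and 285, 239 and 144 CPM in TKO (−0.39 ± 0.29). It was −0.16 without TKO replicate 3, −0.21 without Ctrl replicate 1, −0.62 without TKO replicate 1 and −0.63 without Ctrl replicate 3. The order of the libraries was the same in both genes, with Ctrl replicate 3 between TKO replicates 2 and 3.

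H3 genes encode the H3.1 and H3.2 proteins, whose lysine 9 the deleted enzymes methylate, and they made up 22.1% of the histone CPM and 21.5% of the CPM per coding kb. The sum was 3527, 3384 and 2341 CPM in Ctrl and 2503, 2272 and 2062 CPM in TKO, or 73.9% of Ctrl. Only TKO replicate 1 was above Ctrl replicate 3. H3c6 had 699, 686 and 496 CPM in Ctrl and 505, 460 and 477 CPM in TKO (−0.38 ± 0.16; unadjusted p = 0.0431 in edgeR's test). H3c7 had 381, 362 and 255.8 CPM in Ctrl and 275, 231 and 216 CPM in TKO (−0.47 ± 0.18; unadjusted p = 0.0268). The class had the smallest spread between genes other than H1, with all 11 tested H3 genes between −0.57 and −0.28. Per coding kb, H3c6 reached 1357 CPM, H3c3 1018 and H3c7 703.

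H4 genes were the most abundant class on both scales, at 29.7% of the histone CPM and 38.2% of the CPM per coding kb. Their sum was 4735, 4267 and 2830 CPM in Ctrl and 3162, 2841 and 3756 CPM in TKO, or 82.5% of Ctrl (log2 ratio −0.28, which became −0.13 without Ctrl replicate 1 and −0.47 without Ctrl replicate 3). TKO replicate 3 was the highest TKO library for H4, at 125% of the mean of the other 2, and exceeded Ctrl replicate 3. H4c4 was the most abundant of all 69 genes, at 2557 CPM per coding kb, and had 974, 901 and 627 CPM in Ctrl and 640, 608 and 990 CPM in TKO (−0.16 ± 0.23). Every library moved this value, which ran from −0.42 without TKO replicate 3 and −0.33 without Ctrl replicate 3 to −0.037 without Ctrl replicate 1 and −0.035 without TKO replicate 2. H4c6, at 1357 CPM per coding kb, had 525, 494 and 342 CPM in Ctrl and 360, 304 and 490 CPM in TKO (−0.24 ± 0.22; −0.45 without TKO replicate 3, −0.41 without Ctrl replicate 3, −0.12 without Ctrl replicate 1 and −0.096 without TKO replicate 2). In H4c14, at 1223 CPM per coding kb, TKO replicate 3 was the highest of the 6 libraries, with 536 CPM against 425, 374 and 356 CPM in Ctrl and 282 and 293 CPM in the other TKO libraries. All 13 H4 genes had a log2 fold change below 0, from −0.49 to −0.002 (H4c9), and 0 had an unadjusted p under 0.05.

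**Figure D2:**
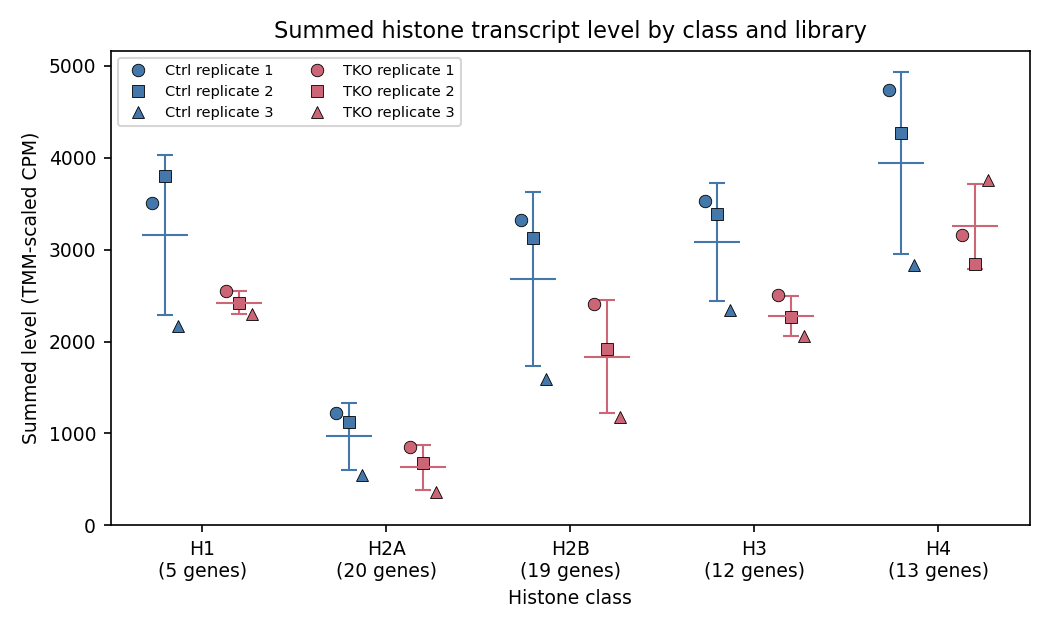
Summed level of each histone class in each library, in TMM-scaled CPM; points are libraries (blue Ctrl, red TKO, shape by replicate number), and horizontal lines with bars give mean ± SD (n = 3). In every class Ctrl replicates 1 and 2 are the highest libraries, while TKO replicate 3 is the lowest of all for H2A and H2B and the highest TKO library for H4.

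The mixture of classes set TKO replicate 3 apart, and the order of the classes depended on it: without this library the log2 ratio was −0.39 for H4, −0.34 for H2A and −0.31 for H2B. The ratio of summed H4 to summed H2A CPM was 3.86, 3.78 and 5.12 in Ctrl and 3.72, 4.16 and 10.4 in TKO. Between replicates 1 and 2 of the groups, the same subset, TKO stood at 67.9% of Ctrl for H1, 65.0% for H2A, 67.2% for H2B, 69.1% for H3 and 66.7% for H4. TKO replicate 3 lay below both other TKO libraries for 17 of 18 tested H2A genes, 16 of 18 H2B genes and 8 of 11 H3 genes, and above both for 7 of 13 H4 genes. In percent of the mean of the other TKO libraries it stood at 92.7 for H1, 47.1 for H2A, 54.6 for H2B and 86.4 for H3. The median GC content of the coding sequences was 61.8% for H1, 69.4% for H2A, 62.7% for H2B, 67.4% for H3 and 65.7% for H4. The part of base composition in this difference was not tested.

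**Figure D3:**
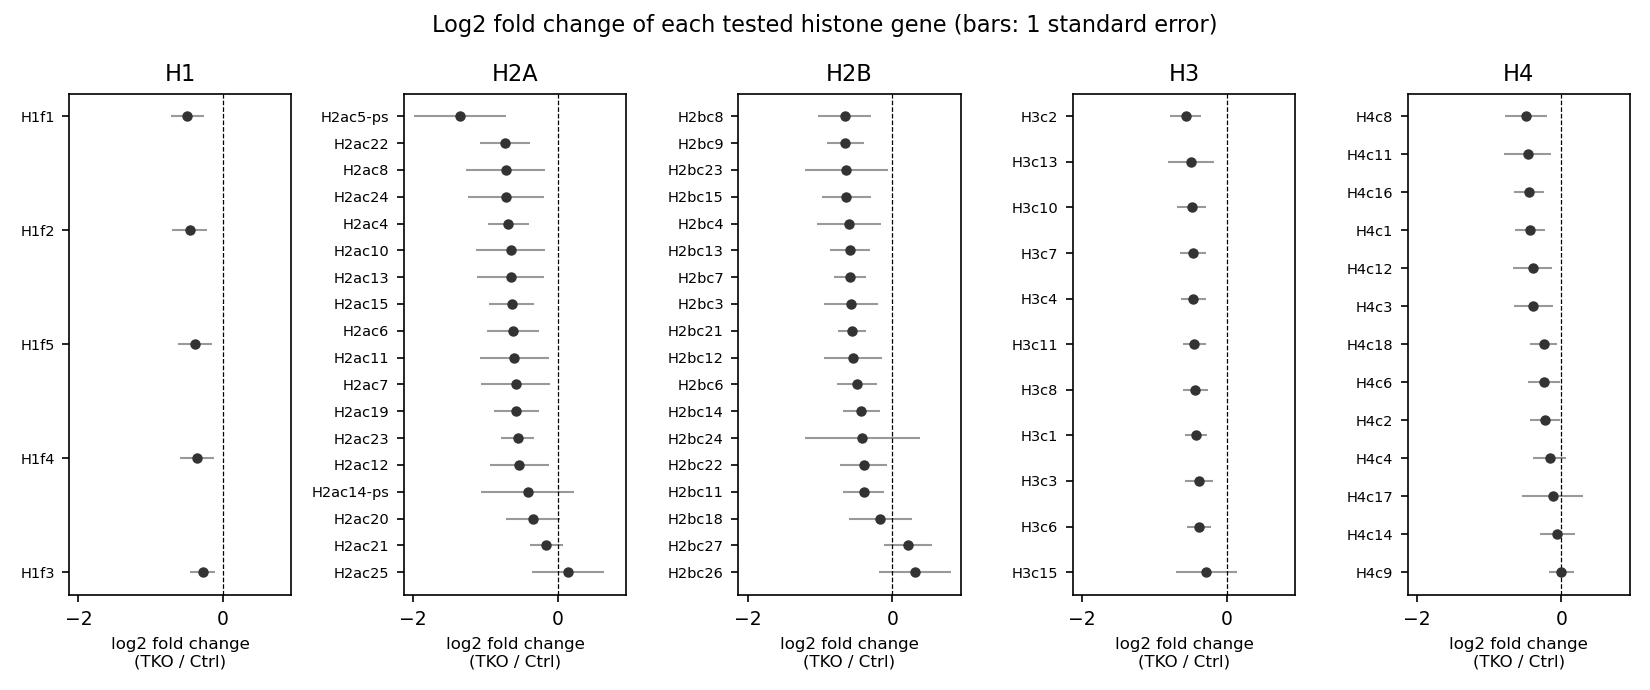
Log2 fold change (TKO over Ctrl, x axis) of each of the 65 tested histone genes, by class, with bars of 1 standard error from the edgeR fit; the dashed line marks 0. Points lie to the left of 0 for 62 of 65 genes, the H3 genes lie between −0.57 and −0.28, and the 3 genes to the right of 0 are H2ac25, H2bc26 and H2bc27.

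By genomic position (GRCm39), 55 of the 69 genes lay in the Hist1 cluster on chromosome 13 (chr13:21899933-24118834), 10 in Hist2 on chromosome 3 (chr3:96127181-96177448), 3 in Hist3 on chromosome 11 (chr11:58838848-58847656) and 1, H4c16, alone on chromosome 6 (chr6:136778551-136781413). Hist1 held 92.6% of the histone CPM and stood in TKO at 74.7% of Ctrl. All 53 tested Hist1 genes had a log2 fold change below 0 (median −0.48). Hist2 stood at 86.0% of Ctrl, with 540 CPM in Ctrl replicate 3 and 709 CPM in TKO replicate 3. All 8 of its tested genes were below 0 (median −0.31). Without replicate 3 of both groups, the subset chosen after seeing the data, TKO was at 67.1% of Ctrl for Hist1 and 70.5% for Hist2. H4c16 had 283, 242 and 164 CPM in Ctrl and 185, 183 and 138 CPM in TKO, at 73.4% of Ctrl.

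The 3 genes of Hist3 were the only tested members above 0. H2bc27 had 23.1, 46.9 and 16.6 CPM in Ctrl and 36.3, 38.7 and 25.6 CPM in TKO (0.22 ± 0.34). H2bc26 had 4.26, 17.1 and 4.76 CPM in Ctrl and 11.02, 13.8 and 7.74 CPM in TKO (0.31 ± 0.49), and H2ac25 had 2.51, 3.94 and 2.34 CPM in Ctrl and 2.63, 5.80 and 1.31 CPM in TKO (0.15 ± 0.50). Each standard error was larger than its fold change, and leaving out 1 library (Ctrl replicate 3, Ctrl replicate 1 and TKO replicate 2, respectively) brought each value below 0. Ctrl replicate 2 was high for this cluster, while Ctrl replicate 1, high for the others, was not. Exons of Trim17 overlap those of H2ac25 on the same strand and 87.9% of the exon bases of H2bc26 on the opposite strand. The part of Trim17 reads in these counts was not tested.

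Members of each class differed widely in level. Over the 6 libraries, 39 of the 69 genes had a mean above 100 CPM and 14 had a mean under 10 CPM. In H4 the mean level per coding kb ran from 3.20 CPM for H4c17 to the 2557 of H4c4, in H3 from 3.76 CPM for H3c15 to 1357 for H3c6, and in H2B from 1.24 CPM for H2bc24 to 953 for H2bc8. The lowest of these, H4c17, H3c15 and H2bc24, had 88.1%, 61.6% and 100% of their 100-base windows elsewhere in the genome, so their counts need not show their level. H1, the smallest class, was the most even, from 558 CPM for H1f1 to 1150 for H1f3. The 4 members that did not pass the filter lay below this range, as H2ac18, H3c14 and H2bc1 had 0 counts in all 6 libraries and H2ac1 had 6 counts in Ctrl replicate 1 and 0 elsewhere. H2ac1 and H2bc1 encode the testis forms of H2A and H2B. The exons of H2ac18 and H3c14 overlap those of the lncRNA Gm20634 on the same strand, and reads of these genes and of Gm20634 cannot be told apart where they overlap.

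H2A and H2B genes often lie head to head and share the sequence between their starts. There were 13 such pairs in which the annotated genes did not overlap and the starts were at most 500 bases apart. All of these were H2A with H2B, at distances of 175 to 305 bases (median 256). Divergent pairs whose annotated exons overlap, such as H2ac6 with H2bc4 and H3c3 with H2bc3, were not counted. In the 10 counted pairs with both genes above 1 CPM, the H2B partner had the higher level per coding kb in 7. The median ratio of H2B to H2A per coding kb was 3.71, with the limit that more H2A than H2B sequence is shared. The ratio ran from 0.0469 for H2ac23 and H2bc23, whose windows were all shared with other places in the genome, to 8.18 for H2ac11 and H2bc11, with 76.4% and 40.7% of windows shared. For H2ac8 and H2bc8 it was 4.85, whereas H2bc15 and H2ac15 were close, at 643 and 560 CPM per coding kb. The log2 fold change was −0.63 for both H2ac15 and H2bc15, −0.58 for both H2ac7 and H2bc7, and −0.72 and −0.66 for H2ac8 and H2bc8. Partners lay farther apart in H2ac22 and H2bc22, at −0.73 and −0.40. Differences between partners were not tested. Without TKO replicate 3, H2ac15 was at −0.38, H2bc15 at −0.41 and H2ac22 at −0.44, and H2ac8 and H2bc8 at −0.32 and −0.36.

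The sequence between H2ac8 and H2bc8 is shown because it carries, in a short stretch, the promoter elements known from H2B genes. It is the 150 bases before the start of H2bc8 in RefSeq (GRCm38.p6, chr13:23571250-23571399, plus strand). Capitals mark, in order, a CCAAT match, the octamer ATTTGCAT bound by Oct1, and a TATAAA match.
H2bc8 promoter: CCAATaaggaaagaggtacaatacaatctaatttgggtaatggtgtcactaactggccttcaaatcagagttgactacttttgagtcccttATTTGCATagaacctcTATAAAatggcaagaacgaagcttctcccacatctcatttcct

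RefSeq promoters (250 bases before to 50 after the start) were matched by symbol for 57 of the 69 genes and searched on both strands. The octamer was in 7 of 14 H2B and 6 of 17 H2A promoters, some of which are overlapping windows of the same pair, and in 0 of the 5 H1, 10 H3 and 11 H4 promoters, beside 1.74% of all 32851 promoters. CCAAT was in every H1, H2A, H2B and H3 promoter but in 3 of 11 H4 promoters, beside 37.4% of all promoters, and TATAAA was in 34 of 57, beside 13.6%.

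Sequence shared between members limits how well counts belong to one gene. In windows of 100 bases, a median of 34.3% of the windows of a member occurred elsewhere in the genome. All windows were shared in 5 members (H2ac19, H2ac23, H2ac24, H2bc23 and H2bc24), and none in 8, among them H4c4 and H4c14. The median log2 fold change was −0.43 in the 41 tested members with under 50% of windows shared, 38 of which were below 0, and −0.56 in the 24 others. Exons of other genes overlapped 33 members on the opposite strand, including all 20 H2A genes, and 11 on the same strand. The strand setting of the counting is not given in the sources used here, so reads of these genes and their antisense partners cannot be told apart.

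Lists of genes around histone production had medians near that of all genes. SLBP and the other genes of histone mRNA processing had a median log2 fold change of −0.03, with 0 of 26 tested genes called or past an unadjusted p of 0.05 in either direction, and their sum in TKO was 102.1% of Ctrl. Slbp, which binds the stem-loop, had 56.2, 61.5 and 45.5 CPM in Ctrl and 58.1, 57.7 and 43.6 CPM in TKO (−0.03 ± 0.17). Histone chaperones, which carry histones to DNA, had a median of −0.02 over 23 genes. The 44 S phase genes had a median of 0.04 and a sum at 103% of Ctrl, with 0 called and 1 past an unadjusted p of 0.05, the ribonucleotide reductase subunit Rrm2 (0.35 ± 0.13). Pcna, the sliding clamp of replication, had 118, 146 and 76.9 CPM in Ctrl and 110, 107 and 110 CPM in TKO. The 20 G2 and M phase genes had a median of 0.07, with 0 called. S phase genes summed to 3474, 3470 and 3086 CPM in Ctrl and 3441, 3448 and 3460 CPM in TKO. G2 and M phase genes summed to 2470, 3137 and 2075 CPM in Ctrl and 2905, 2631 and 2451 CPM in TKO. Ctrl replicate 3 was the lowest library for both sums.

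Replication-independent histone variants, whose mRNAs are mostly polyadenylated and made throughout the cell cycle, had a median of 0.01 over 11 genes, 5 of them below 0 and 0 past an unadjusted p of 0.05, and their sum in TKO was 92.5% of Ctrl. The 2 H3.3 genes, the most abundant of the list, differed in their values. H3f3b had 756, 947 and 739 CPM in Ctrl and 779, 845 and 799 CPM in TKO (−0.01 ± 0.15), and H3f3a had 467, 610 and 380 CPM in Ctrl and 381, 404 and 391 CPM in TKO (−0.31 ± 0.18). H1f0, a linker histone of non-dividing cells and the gene with the lowest p of the list, had 360, 464 and 355 CPM in Ctrl and 285, 275 and 358 CPM in TKO (−0.36 ± 0.17; unadjusted p = 0.0576 in edgeR's test). H3f3a and H1f0 both lay within the range of the replication-dependent genes, with overlapping groups. In both, Ctrl replicate 2 was the highest library, and without it the Ctrl mean lay closer to that of TKO. H2ax, which has a stem-loop after its stop codon, had 286, 244 and 202 CPM in Ctrl and 257, 252 and 232 CPM in TKO (0.02 ± 0.15), with Ctrl replicate 3 the lowest library.

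Other RNAs that end without a poly(A) tail were set beside the histone genes. Of 20 such RNAs listed, 10 were tested, 9 of them had a log2 fold change below 0, and their median was −0.36, beside 0.01 over all genes; 0 were called or past an unadjusted p of 0.05. Scarna2, a small Cajal body RNA, had 571, 562 and 247 CPM in Ctrl and 318, 336 and 265 CPM in TKO (−0.59 ± 0.28). Scarna6, of the same kind, had 17.3, 16.53 and 8.52 CPM in Ctrl and 11.2, 9.53 and 6.57 CPM in TKO (−0.63 ± 0.29). In both, Ctrl replicates 1 and 2 were the highest libraries and Ctrl replicate 3 was among the 2 lowest. Malat1, a nuclear lncRNA whose end is protected by a triple helix and the most abundant RNA of the list, was the exception, with 4128, 3621 and 3672 CPM in Ctrl and 5495, 5668 and 2906 CPM in TKO (0.30 ± 0.24). It dominated the sum of the list, which was 5345, 4856 and 4139 CPM in Ctrl and 6252, 6317 and 3682 CPM in TKO, or 113% of Ctrl, with TKO replicates 1 and 2 the highest libraries. What part the recovery of RNAs without a tail had in the histone values was not tested.

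**Figure D4:**
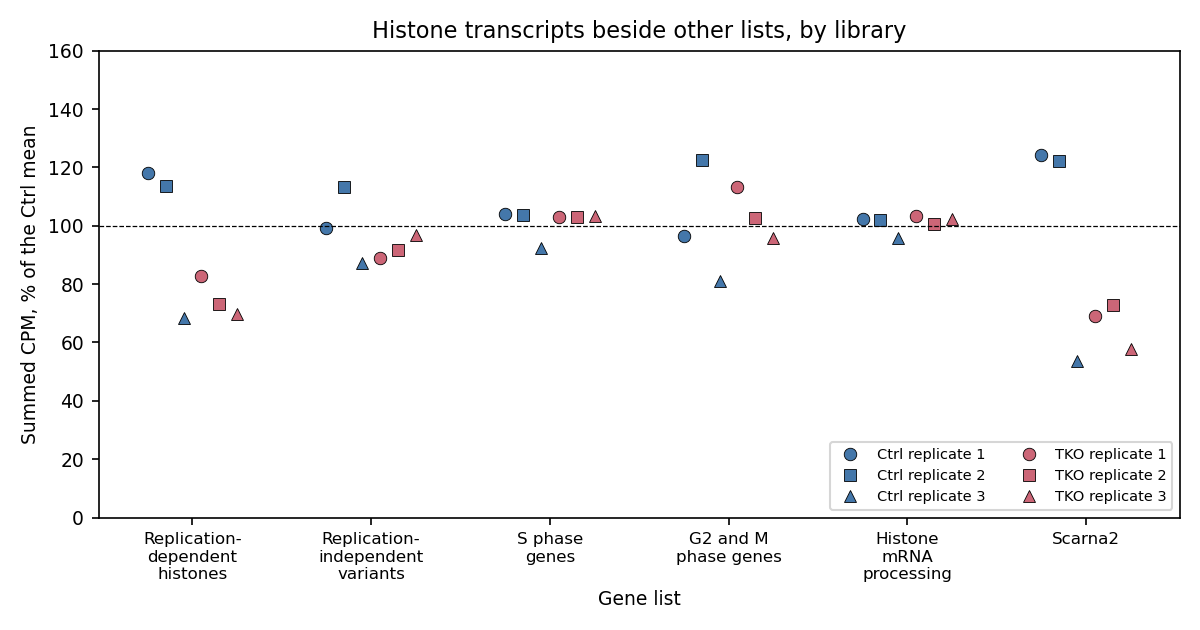
Summed CPM of gene lists, and CPM of Scarna2, in each library as a percentage of the Ctrl mean (dashed line at 100). Histone genes and Scarna2 have Ctrl replicates 1 and 2 on top and the other 4 libraries together below, whereas S phase and histone mRNA processing genes lie closer to 100. Ctrl replicate 3 is the lowest library for these 2 lists and for G2 and M phase genes and replication-independent variants.

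Markers of cell types were given beside these values, since a sorted population can differ in its makeup. The sum of 10 basal keratinocyte markers in TKO was 78.6% of Ctrl, with 25477, 25566 and 19150 CPM in Ctrl and 16448, 18400 and 20290 CPM in TKO. Its most abundant gene, Krt5, had 12318, 12051 and 8179 CPM in Ctrl and 6994, 8037 and 9022 CPM in TKO, so that Ctrl replicate 3 was the lowest Ctrl library here too. The median over the list was 0.00 and Krt15 had the lowest unadjusted p (−1.18 ± 0.26; adjusted p = 0.185, edgeR). Suprabasal markers, of differentiating keratinocytes, had sums of 19098, 18884 and 20712 CPM in Ctrl and 16836, 12709 and 13507 CPM in TKO, or 73.4% of Ctrl. These sums did not overlap, and Ctrl replicate 3 was here the highest library. The sum was led by Krt1. Of 7 suprabasal genes tested, 0 were called and 5 had a log2 fold change below 0, and the median was −0.05. The 2 lower at an unadjusted p under 0.05 were Krt1 (−0.51 ± 0.18) and Krt10 (−0.42 ± 0.17), with groups that did not overlap. Fibroblast markers, led by Col1a1, stood at 93.9% of Ctrl. Their sums were 1710, 4315 and 3563 CPM in Ctrl and 2829, 2933 and 3245 CPM in TKO. Immune cell markers, led by Csf1r, stood at 123.4%. They summed to 33.1, 59.2 and 19.5 CPM in Ctrl and 12.6, 99.0 and 26.4 CPM in TKO. The direction rested on Ctrl replicate 2 for fibroblast markers and on TKO replicate 2 for immune cell markers. Melanocyte markers stood at 128%, led by Kit. Endothelial markers stood at 155%, erythroid markers at 170% and skeletal muscle markers at 451% of Ctrl, on sums of at most 64.2, 146 and 35.3 CPM in any library, and led by Cdh5, Hba-a1 and Ttn. Of all these markers only Myh3, the embryonic myosin heavy chain, was called (2.61 ± 0.34; adjusted p = 0.021, edgeR). Their part in the histone values was not tested.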

How the data were processed

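Total RNA of FACS-sorted basal keratinocytes was depleted of rRNA, and the reads were trimmed with fastp and aligned with STAR. The methods name GRCm39 and the submitters' processing notes GRCm38. The authors deposited raw counts per Ensembl gene, 1 column per library; the counting program, annotation and strand setting are not given in the sources used here. Symbols, positions and classes came from GENCODE vM39 (GRCm39), which matched 51477 of 55536 genes.

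The test was the quasi-likelihood test of edgeR 4.0.16 in R 4.3.3 (filterByExpr at 10 counts and 15 in total, TMM, robust glmQLFit, glmQLFTest, Benjamini-Hochberg adjustment over 20622 genes), after a check on simulated counts. A call needed an adjusted p under 0.05 and a log2 fold change above 1 or below −1. Alternatives were DESeq2 1.42.0, other scalings and filters, sex, a replicate block and each library left out. CPM are on TMM-scaled library sizes, and levels between genes were compared per coding kb. Errors of fold changes are standard errors.

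The members and gene lists were chosen with earlier results of these data known, so lists have counts and medians and no test. Named members are the 3 most abundant of each class and the 5 with the highest and lowest log2 fold changes; from each list the 2 most abundant genes and the 2 with the lowest p could be named, and Slbp, Pcna, H2ax and pair members were added for their function. No source says whether libraries came from single embryos, so p-values measure the spread between these libraries.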

Additional observations from a re-analysis of the deposited data

How the results depend on the processing

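No histone gene was called under any of the alternatives, which were 8 other fits or filters, each library left out in turn, a call without the fold threshold and, added after seeing the data, replicate 3 of both groups left out together. The median log2 fold change of the members stayed below 0 in all of these, from −0.68 to −0.31. The number of members lower at an unadjusted p under 0.05 was 13 and moved to 35 without a low-count filter, 40 with a replicate block, 22 with DESeq2, 0 to 40 with 1 library left out and 49 without replicate 3 of both groups. The share of all genes lower at that p was 2.02% and became 2.51%, 2.98%, 2.49%, 1.27% to 4.65% and 4.96%, in the same order; without the filter the median of all genes was −0.11. Genes called in all numbered 27 and became 235 without a low-count filter, 9 with 10 counts required in every library, 45 with the replicate block, 214 with DESeq2, 7 to 81 with 1 library left out and 3 without replicate 3 of both groups. Without the filter, 5 members had an adjusted p under 0.05 (edgeR), all with a log2 change smaller than 1; the cause was not tested. Of 330 values of named members, 318 kept their direction. The exceptions were 5 genes with main values between −0.06 and 0.31, none larger than 1 standard error: H2ac25 (−0.062 with the replicate block, −0.063 with sex as a covariate and −0.57 to 0.52 with 1 library left out, lowest without TKO replicate 2), H2bc26 (−0.016 without Ctrl replicate 1 to 1.26 without Ctrl replicate 2), H2bc27 (−0.065 without Ctrl replicate 3 to 0.76 without Ctrl replicate 2), H4c14 (−0.42 to 0.10 with 1 library left out, above 0 without Ctrl replicate 1, TKO replicate 1 or TKO replicate 2) and H4c9 (0.054 with total counts only, 0.0015 with 10 counts in every library and −0.12 to 0.12 with 1 library left out, above 0 without Ctrl replicate 2 or TKO replicate 2). The replicate block pairs libraries by number only: deviations of same-numbered libraries correlated at 0.168, 0.0873 and 0.127 across genes, each library correlated best with its own number, and the labels do not say that a number marks a litter.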

Other observations

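Next to the Hist3 cluster lies H3f4 (GRCm39, chr11:58852599-58853364, plus strand), which encodes a testis form of H3 and is not one of the 69 genes. It had 43, 29 and 10 counts in Ctrl and 290, 562 and 247 counts in TKO, or 0.434, 0.224 and 0.0928 CPM and 2.46, 5.09 and 2.03 CPM. The groups did not overlap, and the log2 fold change was 3.67 ± 0.61 (SE), which did not pass the adjusted threshold (adjusted p = 0.0814, edgeR quasi-likelihood test). A stem-loop of the histone type follows its stop codon. H1f6, the other germ cell histone gene tested, had a log2 fold change of −0.06 ± 0.35.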
